A study of Mus musculus with 12 samples.

Results

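The response of wild type mouse lung to 8 weeks of intranasal allergen was measured across an innate immune gene panel, and this account covers 7 of the 12 libraries of the study. Wild type littermates, labelled B6 in the sample names, received either phosphate-buffered saline (B6_PBS, n = 2) or the mixture labelled DRA allergens (B6_DRA, n = 5) into the nose 2 times per week. The labels do not expand DRA and give no age or sex. Both groups are labelled wild type at Chil4 and share the same schedule. The tissue label reads whole lung, while the extraction protocol names the post-caudal lobe. RNA was counted on the NanoString nCounter, which tallies barcoded probes bound to RNA without amplification. All 734 endogenous probes were followed, of which 665 held enough counts to be tested. A further 5 libraries of allergen-treated Chil4-deficient mice (KO_DRA) entered the filter of probes, the scaling and the estimate of spread. They were not part of the contrast.

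Allergic inflammation of the lung is driven by type 2 immunity. Damaged or stimulated epithelium releases the alarmin IL-33, which acts on innate lymphoid cells, T helper cells and mast cells through its receptor ST2. These cells secrete IL-4, IL-5 and IL-13, which recruit and keep alive eosinophils, raise mucus and immunoglobulin E, and turn macrophages to the alternatively activated state, marked by resistin-like and chitinase-like proteins and arginase. Lung tissue itself is made mostly of capillary endothelium, alveolar epithelium and stromal cells, so whole lung RNA mixes their transcripts with those of the arriving leukocytes.

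Depth and library quality set the frame for the values. Total counts were 389757 and 392701 in the B6_PBS libraries and 367744 to 673201 in the B6_DRA libraries. The 3 most abundant allergen-raised transcripts, Chil3, Chil4 and Retnla, took 3.11% and 2.79% of the counts in B6_PBS and 13.2% to 38.9% in B6_DRA, so levels were scaled by trimmed mean of M values (TMM) and are given as counts-per-million (CPM) of the scaled library size. Library B6_DRA 5 stood apart from the other allergen-treated libraries, with the smallest shift from B6_PBS in 121 of the 160 genes called higher and in 99 of the 118 called lower, and its value is given wherever levels are listed by library. No 2 libraries of 1 group agreed within sampling noise, with a chi-square per degree of freedom of 5.40 for the B6_PBS pair. Lung identity could be checked on few genes, since of 18 listed epithelial markers only Cdh1, the epithelial cadherin, was on the panel. It was measured at 3758 and 3913 CPM in B6_PBS and 2423, 2675, 3012, 2416 and 2594 CPM in B6_DRA. In every list of values below, B6_PBS is given in the order of replicates 1 and 2 and B6_DRA in the order of replicates 3 to 7.

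Allergen raised 160 of the 665 tested genes, or 24.1%, and lowered 118, or 17.7%, at an adjusted p under 0.05 by the edgeR quasi-likelihood test with Benjamini-Hochberg adjustment. The rises were larger than the falls. Of the higher genes, 108 rose at least 2-fold and 36 at least 4-fold, whereas 12 of the lower genes fell at least 2-fold. The median log2 fold change over all tested genes was 0.01. All 5 B6_DRA libraries lay above both B6_PBS libraries in 210 genes (31.6%) and below both in 187 genes (28.1%), which includes 157 of the higher and 117 of the lower calls. An interval, rather than a missed threshold, bounded 130 genes within 1.5-fold in either direction at 95% confidence, 4 of which are described with the type 2 receptors. Another 49 probes never exceeded background in the 7 libraries, where background is 2 SD above the average of the negative control probes.

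Calls that did not hang on 1 scaling or tool were counted over 6 fits, namely the TMM fit, scaling by the 20 housekeeping probes, DESeq2, limma-voom, limma on the values scaled by the authors, and the 7 wild type libraries alone. Of the tested genes, 137 (20.6%) were called higher and 59 (8.87%) lower in all 6. That is 137 of the 160 higher and 59 of the 118 lower calls, and a called gene named below without a count of fits passed in all 6. Counts per list are those of the TMM fit. A gene said not to pass missed the threshold in that fit, and some other fits may have called it. Housekeeping scaling, which moved the median of all tested genes to 0.08, gave 163 higher and 72 lower genes, and the values scaled by the authors gave 169 and 61. Library size alone, which moved that median to -0.63, gave 57 higher and 222 lower. Leaving out B6_PBS 1 or B6_PBS 2 left no gene past the adjusted threshold by edgeR, with 187 and 242 genes at an unadjusted p under 0.05, against 355 with both. Leaving out B6_DRA 3, 4, 5, 6 or 7 gave 92, 120, 185, 109 and 94 higher genes and 36, 60, 160, 50 and 42 lower genes. Of the 44 lists with any call, 30, 14, 0, 21 and 26 had fewer calls by over 1.5 times under these omissions and 0, 0, 7, 0 and 0 had more.

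**Figure D1:**
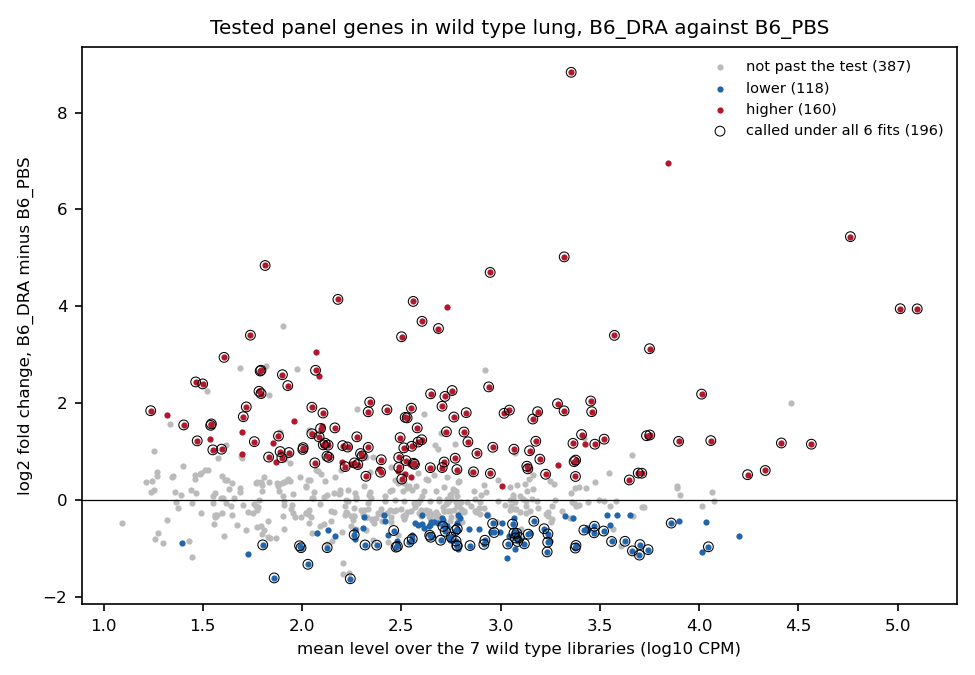
Log2 fold change of B6_DRA over B6_PBS against mean level (log10 CPM over the 7 wild type libraries), 1 point per tested gene. Red marks the 160 genes called higher, blue the 118 called lower, grey the rest, and black rings the genes called under all 6 fits. The highest log2 fold change is 8.83, of Rnase2a, and the lowest of a called gene is -1.63, of Col12a1.

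Promoter sequences are shown for raised genes of the macrophage, class II and protease functions. RefSeq windows of the GRCm38.p6 assembly were matched to 555 panel genes, and the 250 bases before the gene start are shown for 7 genes, 5′ to 3′ on the gene's own strand, with the matched motif in capitals. Retnla holds 1 match to TTCNNNNGAA, the spacing that STAT6 prefers, at chr16:48842359-48842608 on the plus strand. Chil3 (chr3:106167565-106167814, minus strand) and its neighbour Chil4 (chr3:106219480-106219729, minus strand) each hold 1 match to TTCNNNGAA, the spacing shared by other STAT proteins. The class II genes H2-Aa (chr17:34287824-34288073, minus strand) and H2-Eb1 (chr17:34305617-34305866, plus strand) are shown for the Y box CTGATTGG, a known element of class II promoters. Trem2 (chr17:48346151-48346400, plus strand) and Mmp12 (chr9:7347124-7347373, plus strand, 1 of 2 windows in the table) are shown for TGANTCA. These letters are a looser form of the AP-1 site, since they allow any middle base. The match reads TGAATCA in Trem2 and TGAGTCA in Mmp12.
Retnla: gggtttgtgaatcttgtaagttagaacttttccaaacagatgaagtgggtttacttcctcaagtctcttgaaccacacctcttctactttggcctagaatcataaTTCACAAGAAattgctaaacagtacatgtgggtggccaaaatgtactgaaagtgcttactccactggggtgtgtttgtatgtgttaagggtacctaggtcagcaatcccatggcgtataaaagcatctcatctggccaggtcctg
Chil3: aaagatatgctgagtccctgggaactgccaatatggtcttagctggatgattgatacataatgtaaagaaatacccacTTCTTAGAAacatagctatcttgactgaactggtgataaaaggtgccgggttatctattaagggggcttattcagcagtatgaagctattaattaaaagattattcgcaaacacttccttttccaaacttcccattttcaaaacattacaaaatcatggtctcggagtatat
Chil4: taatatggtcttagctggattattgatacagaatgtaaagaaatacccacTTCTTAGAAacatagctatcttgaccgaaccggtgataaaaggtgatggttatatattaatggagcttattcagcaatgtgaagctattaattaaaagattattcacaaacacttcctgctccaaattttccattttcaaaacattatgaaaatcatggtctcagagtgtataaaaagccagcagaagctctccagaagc
H2-Aa: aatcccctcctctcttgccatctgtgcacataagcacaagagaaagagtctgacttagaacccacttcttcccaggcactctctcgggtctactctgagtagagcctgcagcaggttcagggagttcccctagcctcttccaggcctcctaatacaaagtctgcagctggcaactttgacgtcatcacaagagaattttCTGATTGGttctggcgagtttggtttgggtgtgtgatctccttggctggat
H2-Eb1: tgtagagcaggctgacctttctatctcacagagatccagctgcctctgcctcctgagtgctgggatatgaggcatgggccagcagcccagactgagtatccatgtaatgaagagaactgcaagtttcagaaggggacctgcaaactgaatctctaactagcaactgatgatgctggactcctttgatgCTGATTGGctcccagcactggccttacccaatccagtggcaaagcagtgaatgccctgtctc
Trem2: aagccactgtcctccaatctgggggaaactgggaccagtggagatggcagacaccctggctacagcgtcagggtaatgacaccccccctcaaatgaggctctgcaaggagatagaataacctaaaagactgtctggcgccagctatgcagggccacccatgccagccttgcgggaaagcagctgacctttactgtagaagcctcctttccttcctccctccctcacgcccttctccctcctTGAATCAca
Mmp12: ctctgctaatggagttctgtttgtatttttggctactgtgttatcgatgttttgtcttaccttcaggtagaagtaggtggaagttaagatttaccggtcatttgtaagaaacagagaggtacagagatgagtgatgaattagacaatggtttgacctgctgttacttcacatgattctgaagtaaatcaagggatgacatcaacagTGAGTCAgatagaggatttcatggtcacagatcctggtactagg

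The Chil3 and Chil4 windows were identical at 202 of 221 aligned bases, or 91.4%, and carry the same letters in capitals. Motif letters were searched on both strands, each motif on its own, so that overlapping matches of different motifs both count. A gene was counted when any of its windows matched, while the share of all windows counts each window by itself. A gene with several windows thus has more chances to match, and the gene and window shares are unlike measures. TTCNNNNGAA occurred in 6.67% of 120 genes called higher, 4.4% of 91 called lower, 6.08% of 296 uncalled genes and 5.85% of all 32851 windows. For TTCNNNGAA the shares were 10% of higher, 8.79% of lower and 10.1% of uncalled genes against 7.02% of all windows. TGANTCA matched 17.5% of the higher, 3.3% of the lower and 7.77% of the uncalled genes, against 6.75% of all windows. GGGNNTTTCC, a core of NF-kB sites, matched 10%, 2.2% and 4.39%, against 1.41% of all windows. The Y box matched 5%, 4.4% and 4.39%, against 3.83%. The cyclic AMP element TGACGTCA matched 1.67%, 2.2% and 3.04%, against 1.55%. TTTCNNTTTC, read by interferon-regulatory factors, matched 5%, 6.59% and 6.42%, against 2.98%, and CCNNNNNNGG, an open form of the serum response element, 69.2%, 84.6% and 76.7%, against 67.1%. These shares describe letters in short windows, not bound sites, and were not tested.

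Among the signals that start type 2 inflammation, 3 of 5 tested alarmin and cytokine genes rose and none fell, with a median log2 fold change of 1.36 in the list. DESeq2, limma on the values scaled by the authors and the 7 wild type libraries alone each gave 4 rises, and limma-voom gave 2. Il33, the alarmin released by stressed epithelium, was measured at 1321 and 1111 CPM in B6_PBS and 3332, 3537, 1964, 3112 and 3533 CPM in B6_DRA. All 5 allergen-treated libraries lay above both controls, with B6_DRA 5 lowest. It rose 2.54-fold (log2 fold change 1.35 with SE 0.324, adjusted p = 0.0171). Il13, the cytokine of mucus and airway reactivity, was at 9.66 and 5.69 CPM in B6_PBS and 66.5, 37.5, 20.8, 42.9 and 38.1 CPM in B6_DRA. Both controls were below background, and the rise was at least 3.1-fold (log2 fold change 2.39 with SE 0.745, adjusted p = 0.0307). Csf2, which encodes the growth factor GM-CSF, went from 52.6 ± 3.36 CPM in B6_PBS (SD, n = 2) to 136.0 ± 45.7 CPM in B6_DRA (SD, n = 5) and passed the test with log2 fold change 1.36 with SE 0.492, adjusted p = 0.0436, in 5 of the 6 fits. Il4 was at 1.93 and 15.2 CPM in B6_PBS and 56.4, 19.7, 18.5, 53.0 and 66.6 CPM in B6_DRA, and 1 library of each group lay below background (log2 fold change 2.25 with SE 0.907, adjusted p = 0.0636). The eosinophil growth factor Il5 stayed below background in all 7 libraries, at 5.8 and 7.58 CPM in B6_PBS and 18.1, 19.7, 4.62, 5.04 and 19.0 CPM in B6_DRA. Il25, Il9 and Il3 also did. Areg, which encodes the repair factor amphiregulin, had a log2 fold change of 0.17 and did not pass the test.

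Some genes of the receptors and transcription factors of this axis rose, and others were bounded within 1.5-fold. Il1rl1, which encodes ST2, the IL-33 receptor, was at 98.5 and 87.2 CPM in B6_PBS and 399.1, 278.9, 247.2, 448.9 and 314.0 CPM in B6_DRA. Every allergen-treated value exceeded both controls, and it rose 3.63-fold (log2 fold change 1.86 with SE 0.329, adjusted p = 0.00654). Il5ra, the IL-5 receptor chain of eosinophils, was below background in both controls and at 42.3, 39.3, 34.6, 93.3 and 60.3 CPM in B6_DRA, a rise of at least 4.06-fold. Csf2ra, the GM-CSF receptor chain, rose 2.8-fold. In contrast, Il4ra, the shared receptor chain for IL-4 and IL-13, was at 964.0 and 1003 CPM in B6_PBS and 925.2, 1008, 995.6, 945.7 and 986.4 CPM in B6_DRA. The groups overlapped, and the 95% interval of its log2 fold change was -0.21 to 0.18. Stat6, the transcription factor downstream of that receptor, had an interval of -0.47 to -0.03, and Il3ra, the IL-3 receptor chain, one of -0.16 to 0.45. Il1rap, the co-receptor that ST2 needs, fell to a small extent in 2 of the 6 fits, with a log2 fold change of -0.31 and an interval of -0.55 to -0.07, which also lies within 1.5-fold. Over the 8 tested receptors and transcription factors 3 rose (37.5% against 24.1% of the panel) and 1 fell (12.5% against 17.7%). The median log2 fold change was 0.07.

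Products of alternatively activated macrophages rose in 10 of 14 tested genes and fell in none, with a median log2 fold change of 1.81. DESeq2 and the 7 wild type libraries alone each gave 12 rises, and limma-voom gave 8. Without B6_DRA 3, 4, 5, 6 or 7 the count of rises was 4, 6, 12, 3 and 3. Their summed level went from 27310 and 29970 CPM in B6_PBS to between 120100 and 555500 CPM in B6_DRA. Retnla, a secreted resistin-like protein also made by epithelium, was at 1692 and 2013 CPM in B6_PBS and 98220, 42790, 48550, 98790 and 112800 CPM in B6_DRA. Every allergen-treated library stood far above the controls, and for this gene B6_DRA 4 rather than B6_DRA 5 was lowest. It rose 43.3-fold (log2 fold change 5.44 with SE 0.911, adjusted p = 0.00482). Chil3, a chitinase-like lectin of alveolar and activated macrophages, was at 11850 and 10420 CPM in B6_PBS and 215900, 129100, 33440, 241400 and 236700 CPM in B6_DRA. Chil4, its paralog and also an epithelial product, was at 9893 and 8353 CPM in B6_PBS and 181300, 101000, 30080, 200200 and 190900 CPM in B6_DRA. In both genes B6_DRA 5 lay well below the other allergen-treated libraries and still above the controls. The log2 fold changes were 3.94 (SE 1.36) and 3.95 (SE 1.34), with adjusted p of 0.038 and 0.036. No source used here says where the probes bind, and cross-counting between these near-identical genes was not tested.

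Arg1, which encodes arginase, an enzyme that competes for the substrate of nitric oxide synthase, was at 46.4 and 45.5 CPM in B6_PBS and 820.3, 270, 131.7, 1168 and 1269 CPM in B6_DRA. The groups did not overlap, but the allergen-treated libraries spread widely, with an SD of 1.42 on the log2 CPM scale against a median of 0.257 over all tested genes. It rose 15.8-fold (log2 fold change 3.98 with SE 1.4, adjusted p = 0.0406) and was called in 5 of the 6 fits. Mmp12, the macrophage elastase, spread the most of any tested gene, with an SD of 2, and was at 114.0 and 41.7 CPM in B6_PBS and 17900, 2523, 746.1, 16710 and 10930 CPM in B6_DRA. Its highest allergen-treated library, B6_DRA 3, stood far above its lowest, B6_DRA 5. The fold was 125.1 (log2 fold change 6.97 with SE 2.11, adjusted p = 0.0292), also called in 5 of the 6 fits. Clec7a, the beta-glucan receptor dectin-1, rose 3.57-fold, Pdcd1lg2, the inhibitory ligand PD-L2, 3.46-fold, Mrc1, the mannose receptor, 2.31-fold, and Fn1, fibronectin, 1.64-fold, the last in 5 of the 6 fits. Not every gene of the list moved. Tgm2, transglutaminase, was bounded within 1.5-fold (interval -0.39 to 0.28), and Cd163, the haemoglobin scavenger receptor, had a log2 fold change of -0.10. Il1rn, the IL-1 receptor antagonist, was at 743.8, 230.7, 177.9, 761.6 and 656.5 CPM in B6_DRA against 139.1 and 161.1 in B6_PBS. It did not pass the edgeR test in the TMM fit (adjusted p = 0.053).

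**Figure D2:**
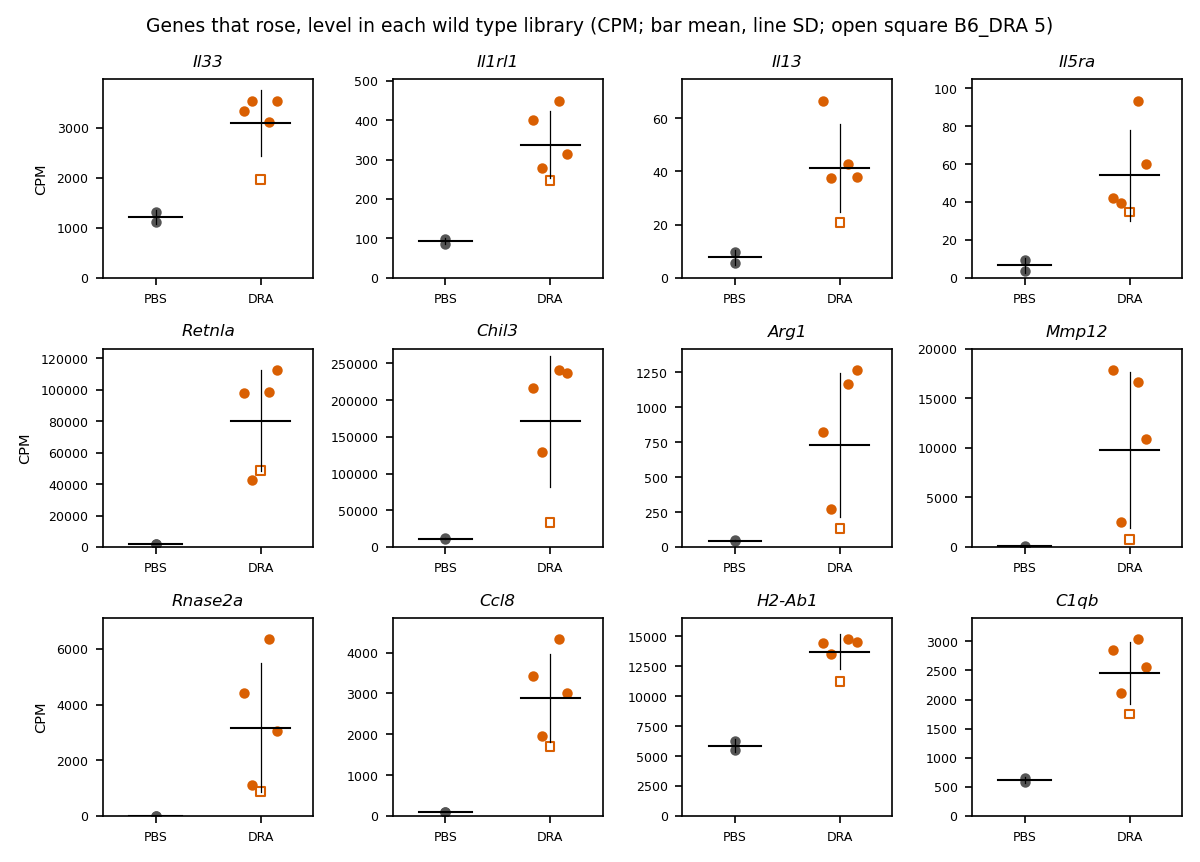
Level of 12 genes that rose, in CPM, with 1 point per library for B6_PBS (grey, n = 2) and B6_DRA (orange, n = 5), a bar at the mean and a line for the SD. Open squares mark B6_DRA 5, which lies near or at the bottom of the allergen-treated libraries in most of the 12 panels, while no allergen-treated library reaches down to a control.

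Eosinophil genes rose from levels at or near background. Of 8 tested eosinophil markers 6 rose and none fell, also without any 1 of the allergen-treated libraries. The median log2 fold change was 3.16, and their summed level was 370.9 to 403.8 CPM in B6_PBS and 1876 to 8784 CPM in B6_DRA. In bulk tissue more cells of a type and more RNA per cell cannot be told apart. Rnase2a, an eosinophil-associated ribonuclease, was at 5.8 and 7.58 CPM in B6_PBS and 4432, 1126, 877.8, 6363 and 3067 CPM in B6_DRA. Both controls were below background, so the rise was at least 196.1-fold (log2 fold change 8.83 with SE 1.99, adjusted p = 0.0156). Prg2, the granule major basic protein, was at 11.6 and 11.4 CPM in B6_PBS and 237.8, 152.0, 92.4, 327.8 and 228.4 CPM in B6_DRA. No library of one group reached the range of the other, and the rise was at least 15.3-fold (log2 fold change 4.14 with SE 0.866, adjusted p = 0.0128). Ccr3, the eotaxin receptor, was at 23.2 and 58.8 CPM in B6_PBS and 530.1, 236.0, 286.4, 549.8 and 536.0 CPM in B6_DRA. It rose 10.3-fold, and Adora3, an adenosine receptor abundant on eosinophils, 6.38-fold. Alox15, the lipoxygenase of eosinophils and type 2 macrophages, was at 23.2 and 34.1 CPM in B6_PBS and 705.5, 227.1, 226.4, 766.7 and 558.2 CPM in B6_DRA and rose 17.1-fold (log2 fold change 4.10 with SE 0.989, adjusted p = 0.0171). The defining granule gene Epx, eosinophil peroxidase, stayed below background in all 7 libraries. Siglecf, which alveolar macrophages also carry, had a log2 fold change of 0.17 (adjusted p = 0.542). Ear3, a ribonuclease of the same family as Rnase2a, was bounded within 1.5-fold, at 3230 and 3482 CPM in B6_PBS and 3015, 2618, 3132, 4365 and 3267 CPM in B6_DRA, so the family did not move as 1. Shared binding of probes within the family was not tested.

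Eotaxins and monocyte-attracting chemokines rose as a whole list, with 6 of 6 tested genes higher and a median log2 fold change of 2.54. Ccl8, a chemokine for monocytes and, in the mouse, for type 2 T cells, was at 90.8 and 87.2 CPM in B6_PBS and 3437, 1962, 1700, 4340 and 3023 CPM in B6_DRA. Each allergen-treated library stood well above both controls, and it rose 32.4-fold (log2 fold change 5.02 with SE 0.813, adjusted p = 0.00482). Ccl11, eotaxin-1, was at 42.5 and 41.7 CPM in B6_PBS and 687.3, 407.7, 242.6, 683.4 and 710.5 CPM in B6_DRA and rose 12.9-fold. Ccl24, eotaxin-2, was at 25.1 and 11.4 CPM in B6_PBS and 86.7, 55.4, 57.8, 335.4 and 247.4 CPM in B6_DRA. Its B6_PBS 2 value lay below background. In Ccl24 the libraries B6_DRA 6 and 7 stood above the other three, and its SD on the log2 scale was 1.17. It rose 8.35-fold (log2 fold change 3.06 with SE 0.949, adjusted p = 0.0306) and passed in 5 of the 6 fits. Ccl12 and Ccl7, ligands of the monocyte receptor CCR2, rose 4.05-fold and 3.29-fold. Ccl2, the main ligand of that receptor, rose 2.89-fold and passed in 4 of the 6 fits, with 71.6 to 206.2 CPM in B6_DRA.

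Of 13 other CC chemokines 6 rose and none fell, with a median log2 fold change of 1.04. There were 3, 5, 7, 4 and 3 rises without B6_DRA 3, 4, 5, 6 or 7. Ccl6 and Ccl9, macrophage products that act on CCR1, rose 8.7-fold and 10.5-fold. Ccl17, the dendritic cell chemokine that draws type 2 T cells, was at 224.1 and 223.7 CPM in B6_PBS and 927.2, 1259, 545.2, 1178 and 1741 CPM in B6_DRA. The groups did not overlap, and it rose 5.04-fold (log2 fold change 2.33 with SE 0.618, adjusted p = 0.0205). Ccl20, an epithelial ligand of CCR6, was at 15.5 and 26.5 CPM in B6_PBS and 102.8, 89.4, 62.4, 116.0 and 180.8 CPM in B6_DRA and rose 5.13-fold. Ccl19, the lymphoid tissue chemokine, rose 2.06-fold. Ccl1, a ligand of CCR8, was below background in both controls and in 3 of the 5 allergen-treated libraries, and no fold is given for it. Ccl5, the chemokine of cytotoxic lymphocytes, had a log2 fold change of -0.45 and Ccl21a, of lymphatic vessels, one of -0.34; neither passed the test.

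Among 12 tested CXC and related chemokines 4 rose (33.3% against 24.1% of the panel) and 1 fell (8.33% against 17.7%). The list's median log2 fold change was 0.15, or -0.53 with library size alone. Cxcl5, a neutrophil attractant made by lung epithelium, was at 48.3 and 45.5 CPM in B6_PBS and 415.2, 2285, 686.1, 1427 and 1297 CPM in B6_DRA. For this gene B6_DRA 3 was lowest and B6_DRA 4 highest, and it rose 25.9-fold (log2 fold change 4.70 with SE 1.11, adjusted p = 0.0171). Cxcl1 and Cxcl3, ligands of the same neutrophil receptor, rose 6.39-fold and 4.58-fold from 17.4 and 7.58 CPM and 15.5 and 19.0 CPM. The B6_PBS 2 value of Cxcl1 lay below background. Cxcl9, an interferon-gamma-induced chemokine for T cells, went from 37.3 ± 0.854 CPM in B6_PBS (SD, n = 2) to 141.9 ± 34.5 CPM in B6_DRA (SD, n = 5) and rose 3.76-fold. Cxcl12, the stromal retention signal, was bounded within 1.5-fold (interval -0.38 to 0.14). Cxcl14, a chemokine of resting epithelium and stroma, fell, at 1895 and 1736 CPM in B6_PBS and 604.7, 801.1, 1474, 365.7 and 691.4 CPM in B6_DRA. All 5 allergen-treated libraries lay below both controls, with B6_DRA 5 the nearest to them. The fall was 2.3-fold (log2 fold change -1.20 with SE 0.431, adjusted p = 0.043) and passed in 5 of the 6 fits.

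Chemokine receptors followed with 8 of 18 tested genes higher, 1 lower and a median log2 fold change of 0.75. Ccr1, carried by monocytes and eosinophils, rose 3.25-fold, with 231.0 to 551.9 CPM in B6_DRA. Cxcr6, a receptor of resident lymphocytes, rose 2.19-fold and Xcr1, of cross-presenting dendritic cells, 2.3-fold. Ccrl2, a non-signalling chemerin receptor, fell 1.46-fold, with 718.7 and 606.6 CPM in B6_PBS and 443.4, 445.2, 473.6, 446.4 and 453.6 CPM in B6_DRA. Its 5 allergen-treated values lay within a narrow band, with an SD of 0.039 on the log2 scale. Cxcr1, a neutrophil receptor, spread from 20.8 to 311.1 CPM in B6_DRA and did not pass the test (adjusted p = 0.197).

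Antigen presentation through class II rose in every tested member. All 9 genes of the MHC class II list passed the test in all 6 fits, with a median log2 fold change of 1.17. With library size alone 1 of the 9 stayed past the test and the median was 0.5, and leaving out 1 allergen-treated library at a time left 8 or 9. H2-Ab1, the class II beta chain, was at 5500 and 6243 CPM in B6_PBS and 14420, 13520, 11220, 14790 and 14520 CPM in B6_DRA. It rose 2.33-fold with a small spread (log2 fold change 1.22 with SE 0.205, adjusted p = 0.00482). H2-Eb1, whose Y box is shown above, rose 2.5-fold and H2-Aa 2.25-fold. Cd74, the invariant chain that escorts class II, was at 18560 and 20810 CPM in B6_PBS and 46860, 42370, 37280, 46630 and 44950 CPM in B6_DRA and rose 2.22-fold. Unlike Chil3, these genes varied little among the allergen-treated libraries, and the list's median SD on the log2 scale was 0.164. Ctss, the cathepsin that trims the invariant chain, was the exception, at 2842 and 2995 CPM in B6_PBS and 18530, 8760, 5297, 18290 and 15360 CPM in B6_DRA, and rose 4.54-fold (log2 fold change 2.18 with SE 0.63, adjusted p = 0.0262).

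Class I genes changed by small amounts. Of 12 tested genes of class I and its processing 5 rose (41.7% against 24.1% of the panel) and 1 fell (8.33% against 17.7%). In the list 6 genes were bounded within 1.5-fold, and the median log2 fold change was 0.21, or -0.42 with library size alone. H2-K1 (log2 fold change 0.60), H2-T23 (0.55), H2-D1 (0.52) and the immunoproteasome subunit Psmb8 (0.48) rose, although with library size alone their log2 fold changes turned to -0.05, -0.11, -0.15 and -0.16. H2-K1 itself was at 15010 and 16390 CPM in B6_PBS and 23110, 21450, 22120, 26130 and 26570 CPM in B6_DRA. The groups did not overlap (log2 fold change 0.60 with SE 0.153, adjusted p = 0.0187). The peptide transporter Tap1 and its partner Tapbp stayed within -0.12 to 0.32 and -0.19 to 0.19 on the log2 scale. Cd1d1, which presents lipids, fell by a log2 fold change of -0.32, in 2 of the 6 fits.

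In the list of B7 and CD28 family and other checkpoint genes 9 of 15 tested genes rose and none fell. The median log2 fold change was 0.76. The rises include Havcr2, Lag3 and Cd244, which belong to neither family. Ctla4, the inhibitory receptor of activated and regulatory T cells, was at 17.4 and 17.1 CPM in B6_PBS and 110.9, 121.6, 48.5, 131.1 and 111.0 CPM in B6_DRA. The groups did not overlap, B6_DRA 5 was lowest, and it rose 6-fold (log2 fold change 2.58 with SE 0.432, adjusted p = 0.00482). Pdcd1, the receptor PD-1, rose 3.78-fold and Icos, a costimulator of helper T cells, 2.2-fold. Icosl, the ligand of Icos, was bounded within 1.5-fold (interval -0.07 to 0.42). In the TNF superfamily 4 of 16 tested genes rose (25% against 24.1% of the panel) and 2 fell (12.5% against 17.7%). The median log2 fold change was -0.06, or 0.01 with housekeeping scaling. Cd40lg, the helper signal to B cells, rose 2.96-fold, while its receptor Cd40 was bounded within 1.5-fold (interval -0.56 to 0.05). Tnfrsf4, a costimulator of T cells, and Tnfrsf1b, a TNF receptor, rose 1.84-fold and 1.77-fold, and Tnfrsf9, another T cell costimulator, at least 2.77-fold. Tnfsf10, the death ligand TRAIL, was at 1696 and 1517 CPM in B6_PBS and 888.9, 851.1, 1488, 895.3 and 948.3 CPM in B6_DRA. It fell 1.58-fold, with B6_DRA 5 close to the controls, and Tnfrsf12a fell 1.44-fold; both passed in 4 of the 6 fits.

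Complement components rose in 5 of 6 tested genes and fell in none, with a median log2 fold change of 1.44. C1qb, a chain of the C1q recognition molecule made by macrophages, was at 654.9 and 587.7 CPM in B6_PBS and 2850, 2110, 1751, 3044 and 2553 CPM in B6_DRA. Allergen-treated and control ranges lay apart, and it rose 3.96-fold (log2 fold change 1.99 with SE 0.316, adjusted p = 0.00482), beside C1qa at 3.61-fold and C1qc at 3.18-fold. C3, the central component, rose 2.31-fold. The 2 anaphylatoxin receptors moved in opposite directions. C3ar1 was at 139.1 and 166.8 CPM in B6_PBS and 915.1, 506.0, 371.9, 837.3 and 735.8 CPM in B6_DRA and rose 4.39-fold (log2 fold change 2.13 with SE 0.471, adjusted p = 0.0156). C5ar1, also abundant on neutrophils, was at 539.0 and 483.4 CPM in B6_PBS and 175.4, 325.4, 311.9, 287.5 and 295.0 CPM in B6_DRA and fell 1.83-fold (log2 fold change -0.87 with SE 0.212, adjusted p = 0.0171).

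Fc receptors and uptake receptors rose in part. In the Fc list 5 of 9 tested genes rose and none fell, with a median log2 fold change of 1.13. Fcgr2b, the inhibitory IgG receptor, was at 562.2 and 532.7 CPM in B6_PBS and 2211, 1840, 1164, 2416 and 2033 CPM in B6_DRA. It rose 3.53-fold (log2 fold change 1.82 with SE 0.404, adjusted p = 0.0156), the activating receptor Fcgr3 rose 3.82-fold, the adaptor Tyrobp 2.53-fold and the kinase Btk 2.29-fold. Among 12 C-type lectin and scavenger genes 4 rose (33.3% against 24.1% of the panel) and 1 fell (8.33% against 17.7%). Cd209e, a lectin of the DC-SIGN family, was below background in both controls and at 104.8, 64.4, 53.1, 136.2 and 92.0 CPM in B6_DRA, a rise of at least 6.86-fold. Cd68, a lysosomal protein of macrophages, rose 4.11-fold. Cd36, a fatty acid translocase that lung endothelium and macrophages both carry, fell 1.37-fold, in 4 of the 6 fits. In the list of dying-cell uptake and phospholipid recognition 2 of 8 tested genes rose (25%) and 1 fell (12.5%), near the panel shares. Its members Mertk, Pros1, Timd4, Anxa1 and Trem1 did not pass the test. Trem2, a lipid-sensing receptor of tissue macrophages, was at 50.2 and 62.6 CPM in B6_PBS and 1048, 452.4, 175.6, 895.3 and 723.1 CPM in B6_DRA. The groups did not overlap, although the highest and lowest allergen-treated libraries, B6_DRA 3 and 5, stood far apart, and it rose 11.6-fold (log2 fold change 3.54 with SE 0.955, adjusted p = 0.0212). Sirpa, the phagocyte receptor that reads the signal CD47, rose 1.76-fold, whereas Cd47 itself fell 1.3-fold in 5 of the 6 fits.

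In the Toll-like receptor and adaptor list 6 of 15 tested genes rose (40% against 24.1% of the panel) and 2 fell (13.3% against 17.7%). The rises include Cd14 and Cd180, which are not Toll-like receptors themselves. The median log2 fold change was 0.41, or -0.27 with library size alone. Leaving out B6_DRA 3, 4, 5, 6 or 7 gave 3, 3, 8, 4 and 3 rises. Tlr13, which senses bacterial ribosomal RNA, was at 137.2 and 123.2 CPM in B6_PBS and 526.1, 398.7, 196.4, 504.4 and 482.1 CPM in B6_DRA. It rose 3.23-fold (log2 fold change 1.69 with SE 0.473, adjusted p = 0.024), and Tlr1, which pairs with Tlr2 on bacterial lipopeptide, 2.58-fold. Tlr6 and Cd180 rose 1.97-fold and 1.66-fold. Tlr3, the double-stranded RNA sensor, and the adaptor Traf6 fell, with log2 fold changes of -0.36 in 3 and -0.45 in 4 of the 6 fits. Myd88, the shared adaptor, was at 401.8 and 379.1 CPM in B6_PBS and 393.0, 413.0, 348.8, 380.8 and 418.7 CPM in B6_DRA. The groups overlapped, and the interval of -0.30 to 0.30 bounds it within 1.5-fold. In the inflammasome list 1 of 9 tested genes rose (11.1% against 24.1% of the panel) and none fell. Casp1 rose 1.55-fold in 5 of the 6 fits and had a log2 fold change of -0.04 with library size alone.

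Interferon-stimulated genes were among those that fell. Of 16 tested genes of the interferon list 5 fell (31.25% against 17.7% of the panel) and 2 rose (12.5% against 24.1%). In the list 7 genes were bounded within 1.5-fold, and the median log2 fold change was -0.24. Isg15, a ubiquitin-like protein induced by type I interferon, was at 388.3 and 646.4 CPM in B6_PBS and 276.1, 271.8, 344.2, 285.0 and 301.3 CPM in B6_DRA. Both controls exceeded every allergen-treated library, and it fell 1.75-fold (log2 fold change -0.81 with SE 0.212, adjusted p = 0.0204). Irf7, the factor that amplifies the type I response, was at 210.6 and 299.5 CPM in B6_PBS and 125.0, 157.3, 198.7, 138.7 and 152.2 CPM in B6_DRA and fell 1.65-fold. Mx2, an antiviral GTPase, went from 96.5 ± 13.6 CPM in B6_PBS (SD, n = 2) to 50.1 ± 12.9 CPM in B6_DRA (SD, n = 5) and fell 1.91-fold (log2 fold change -0.93 with SE 0.288, adjusted p = 0.0306). The 2 controls differed from each other in Isg15 and Irf7, with B6_PBS 2 higher in both. Ifngr1, the interferon-gamma receptor chain, fell by a log2 fold change of -0.34, in 4 of the 6 fits. Housekeeping scaling left 3 of the 5 falls past the test, and omitting B6_DRA 3, 4, 5, 6 or 7 gave 1, 2, 8, 2 and 2 falls. Cxcl9 rose as given above, and Tmem173, the DNA-sensing adaptor STING, was at 83.1 and 104.3 CPM in B6_PBS and 179.4, 225.3, 150.2, 219.4 and 225.2 CPM in B6_DRA and rose 2.13-fold. Ifnb1 stayed below background in all 7 libraries, and Ifnar2, a receptor chain, was bounded within -0.09 to 0.29.

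Signalling genes downstream of these receptors were called about as often as the panel as a whole. Of 15 NF-kB and MAPK genes 3 rose (20% against 24.1% of the panel), 2 fell (13.3% against 17.7%) and 6 were bounded within 1.5-fold, and the median log2 fold change was -0.05, or 0.03 with housekeeping scaling. Malt1 and Nfkbie, a scaffold and an inhibitor of NF-kB, rose 2.44-fold and 2.25-fold. Tnfaip3, a feedback inhibitor, rose 1.67-fold in 4 of the 6 fits. Their partner Bcl10 was bounded within -0.26 to 0.25 and Nfkb1, a subunit, within -0.25 to 0.28. Traf1 fell 1.38-fold, in 4 of the 6 fits.

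**Figure D3:**
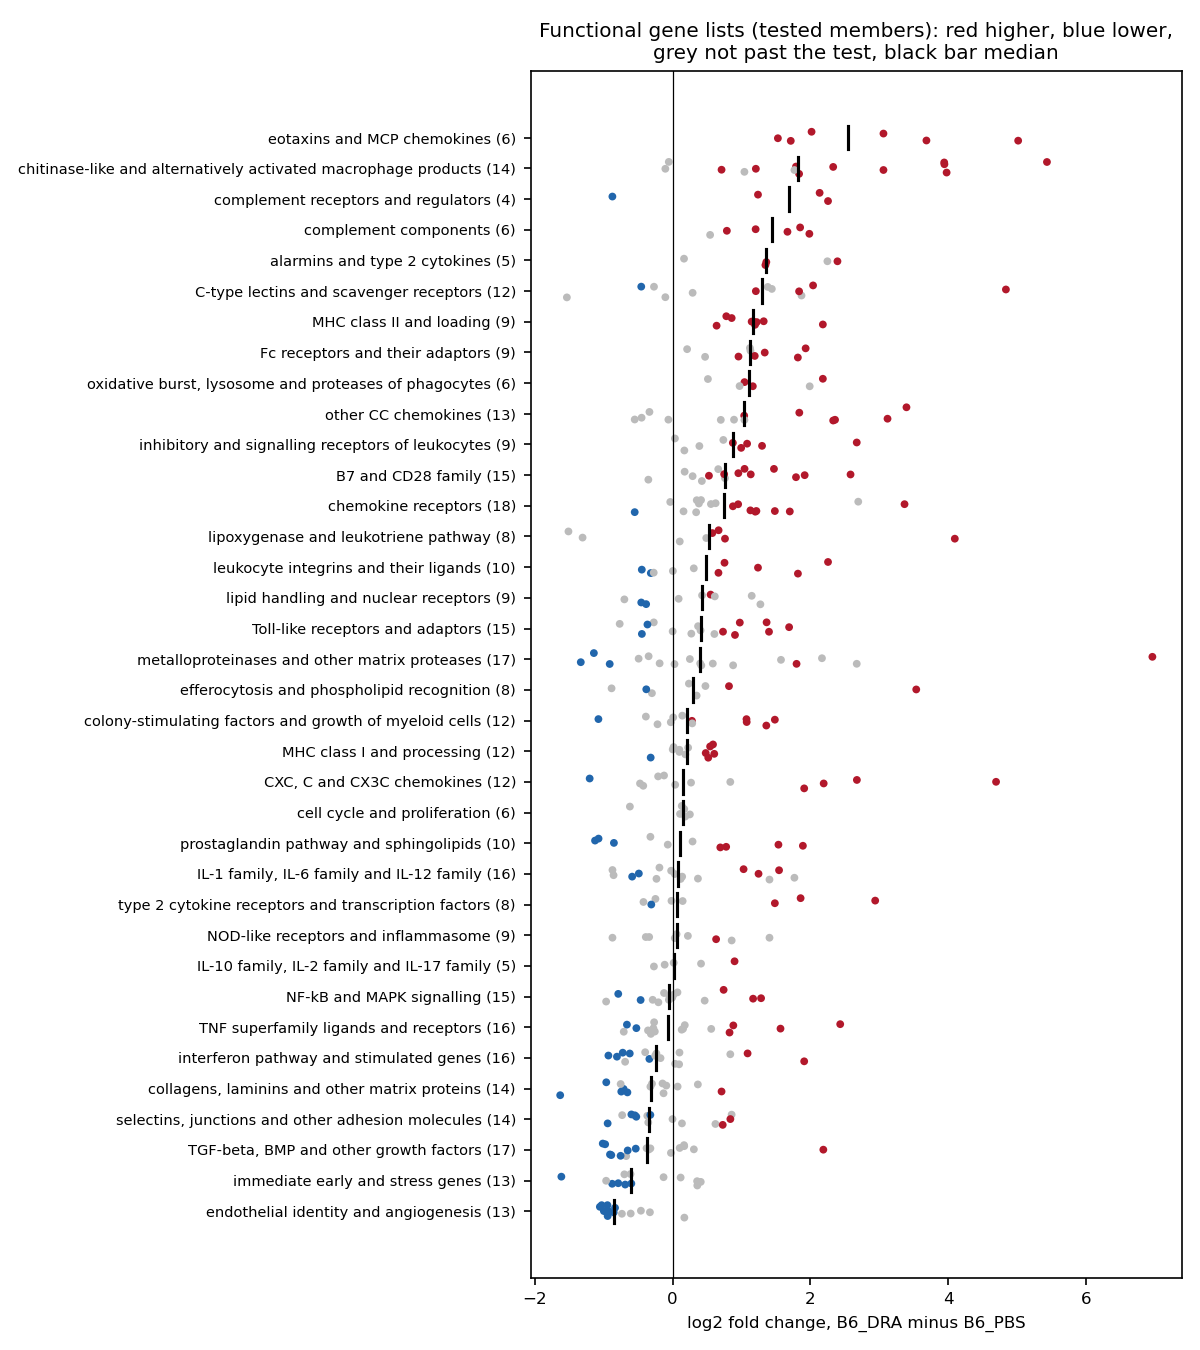
Log2 fold change of B6_DRA over B6_PBS for each tested member of the functional lists with at least 3 tested genes, 1 row per list with its number of tested genes, ordered by the list median (black bar). Red points were called higher, blue lower and grey neither. Eotaxins lie at the top with a median of 2.54 and the endothelial list at the bottom with -0.86.

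Other cytokine families also lay near the panel shares. In the IL-1, IL-6 and IL-12 families 3 of 16 tested genes rose (18.8%) and 2 fell (12.5%), with a median log2 fold change of 0.08. Il6 was low throughout, at 13.5 and 7.58 CPM in B6_PBS and 38.3, 34.0, 13.9, 35.3 and 34.9 CPM in B6_DRA. B6_DRA 5 and B6_PBS 2 lay below background, and the fitted fold of the rise was 2.92 (log2 fold change 1.55 with SE 0.393, adjusted p = 0.0188). Il27ra rose 2.04-fold and the decoy receptor Il1r2 2.38-fold, the latter in 3 of the 6 fits. Il18r1, the IL-18 receptor chain, went from 3578 ± 136.2 CPM in B6_PBS (SD, n = 2) to 2381 ± 396.7 CPM in B6_DRA (SD, n = 5) and fell 1.5-fold, in 4 of the 6 fits, and Il6ra fell 1.41-fold, in 3. Stat3, which many of these cytokines share, was bounded within -0.22 to 0.18. In the IL-10, IL-2 and IL-17 families Il21r rose 1.87-fold as the single call among 5 tested genes, and Il17ra was bounded within -0.24 to 0.27. Il10, Il22, Il27 and Il2 were below background in all 7 libraries.

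Growth factors of myeloid cells rose in 5 of 12 tested genes (41.7% against 24.1% of the panel) and fell in 1 (8.33% against 17.7%). Flt3, the receptor of dendritic cell precursors, was at 54.1 and 58.8 CPM in B6_PBS and 118.9, 116.2, 110.9, 136.2 and 114.2 CPM in B6_DRA and rose 2.11-fold. Csf1r, the macrophage growth factor receptor, rose only 1.22-fold in 5 of the 6 fits, stayed within the 1.5-fold bound and turned to -0.36 on the log2 scale with library size alone. Kitl, which encodes stem cell factor, the mast cell growth factor of stroma and endothelium, fell, at 2776 and 2724 CPM in B6_PBS and 1129, 1130, 1903, 1274 and 1082 CPM in B6_DRA. There was no overlap, and B6_DRA 5 stood between the controls and the other allergen-treated libraries. The fall was 2.11-fold (log2 fold change -1.08 with SE 0.298, adjusted p = 0.0229).

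Lipid mediator genes changed on both sides. Of 8 tested genes in the lipoxygenase and leukotriene list 4 rose and none fell, with a median log2 fold change of 0.53, or -0.13 with library size alone. The list also holds the formyl peptide receptors Fpr1 and Fpr2, neither of which passed the edgeR test. Limma-voom called 1 of the 8 lower. Cysltr1, the cysteinyl leukotriene receptor that asthma drugs block, was at 114.0 and 130.8 CPM in B6_PBS and 183.4, 212.8, 196.4, 221.9 and 225.2 CPM in B6_DRA. It rose 1.7-fold with a narrow spread (log2 fold change 0.76 with SE 0.162, adjusted p = 0.0138). Alox5, which starts leukotriene synthesis, rose 1.59-fold and its partner Alox5ap 1.49-fold, the latter with a log2 fold change of -0.08 with library size alone. Lta4h, which makes leukotriene B4, was bounded within -0.15 to 0.36.

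In the prostaglandin and sphingolipid list 4 of 10 tested genes rose (40% against 24.1% of the panel) and 3 fell (30% against 17.7%). The median log2 fold change was 0.11, or -0.52 with library size alone. Ptgdr, a prostaglandin D2 receptor, rose 2.9-fold and Hpgds, a prostaglandin D2 synthase, 1.72-fold, the latter in 5 of the 6 fits. Ptgs1, the constitutive cyclooxygenase, rose 1.62-fold and Ptafr, the platelet-activating factor receptor, 3.71-fold. Hpgd, the enzyme that inactivates prostaglandins and one of the most abundant transcripts of the control lung on this panel, was at 17070 and 16100 CPM in B6_PBS and 6367, 8617, 11610, 6718 and 6033 CPM in B6_DRA. All 5 allergen-treated libraries lay below both controls, with B6_DRA 5 the highest of them. It fell 2.11-fold (log2 fold change -1.07 with SE 0.361, adjusted p = 0.0349), in 5 of the 6 fits. S1pr1, the sphingosine phosphate receptor of endothelium and lymphocytes, was at 975.6 and 775.3 CPM in B6_PBS and 417.2, 482.8, 660.7, 403.5 and 459.9 CPM in B6_DRA and fell 1.8-fold, and the kinase Sphk1 fell 2.18-fold in 5 of the 6 fits.

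Phagocyte enzymes rose in 3 of 6 tested genes and fell in none, with a median log2 fold change of 1.10. Cybb, a subunit of the oxidative burst enzyme, rose 2.24-fold. Ctsd, a lysosomal protease among the most abundant transcripts, was at 9119 and 9437 CPM in B6_PBS and 53050, 36010, 11890, 42400 and 41010 CPM in B6_DRA. B6_DRA 5 lay just above the controls and the other four far above, and the gene did not pass the test (log2 fold change 1.99 with SE 0.773, adjusted p = 0.0556). In the lipid handling list 1 of 9 tested genes rose (11.1% against 24.1% of the panel) and 2 fell (22.2% against 17.7%). Apoe, the lipid carrier of macrophages, rose 1.47-fold, with a log2 fold change of -0.11 with library size alone, and Nr1h3, the nuclear receptor LXR alpha, fell 1.3-fold in 4 of the 6 fits.

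Among leukocyte integrins and their ligands 5 of 10 tested genes rose (50% against 24.1% of the panel) and 2 fell (20% against 17.7%). The median log2 fold change was 0.49, or -0.16 with library size alone. Itgb2, the shared beta chain of leukocyte integrins, was at 1030 and 1020 CPM in B6_PBS and 4847, 3290, 1626, 4340 and 3996 CPM in B6_DRA. It rose 3.53-fold (log2 fold change 1.82 with SE 0.58, adjusted p = 0.0323), and its partners Itgax and Itgam rose 4.78-fold and 2.36-fold. Itga4 and Itgb7, which pair as a homing integrin, rose 1.59-fold and 1.69-fold. Itgb1, a chain of most tissue cells, went from 9804 ± 57.0 CPM in B6_PBS (SD, n = 2) to 7189 ± 587.1 CPM in B6_DRA (SD, n = 5) and fell 1.36-fold, and Icam1, a ligand on endothelium and epithelium, fell 1.25-fold; both passed in 4 of the 6 fits. Vcam1, a ligand of Itga4, was bounded within -0.54 to -0.01. In the list of selectins and junctions 2 of 14 tested genes rose (14.3%) and 5 fell (35.7%), with a median log2 fold change of -0.34. Selplg, the selectin ligand of leukocytes, and Amica1, a junctional receptor of leukocytes, rose 1.79-fold and 1.66-fold. Cdh1, given above, fell 1.46-fold (log2 fold change -0.55 with SE 0.139, adjusted p = 0.0188), and Cd151 and F11r fell 1.51-fold and 1.44-fold, the latter in 4 of the 6 fits.

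Genes of the vessel wall fell together. Of 13 tested endothelial and angiogenic genes 8 fell and none rose, with a median log2 fold change of -0.86, and 7 of the falls were called in all 6 fits. The falls numbered 3, 5, 10, 4 and 3 without B6_DRA 3, 4, 5, 6 or 7. Tek, the angiopoietin receptor, was at 3926 and 3469 CPM in B6_PBS and 1643, 1725, 2456, 1735 and 1697 CPM in B6_DRA. All 5 allergen-treated libraries lay below both controls, with B6_DRA 5 highest among them, and it fell 2-fold (log2 fold change -1.0 with SE 0.248, adjusted p = 0.0176). Thbd, thrombomodulin, the anticoagulant receptor of capillaries, was at 9658 and 7755 CPM in B6_PBS and 3870, 3750, 6152, 4015 and 3527 CPM in B6_DRA and fell 2.04-fold (log2 fold change -1.03 with SE 0.257, adjusted p = 0.0176). Vegfa, the main endothelial growth factor, which alveolar epithelium makes, was at 7552 and 7120 CPM in B6_PBS and 2967, 3621, 5241, 3064 and 2750 CPM in B6_DRA. It fell 2.08-fold (log2 fold change -1.06 with SE 0.29, adjusted p = 0.0228). Cdh5, the endothelial cadherin, and Flt1, a receptor of Vegfa, fell 1.92-fold and 1.93-fold. Hif1a, which regulates Vegfa, was bounded within -0.06 to 0.41. The 4 endothelial markers on the panel summed to 15580 to 18670 CPM in B6_PBS and 7073 to 12190 CPM in B6_DRA.

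**Figure D4:**
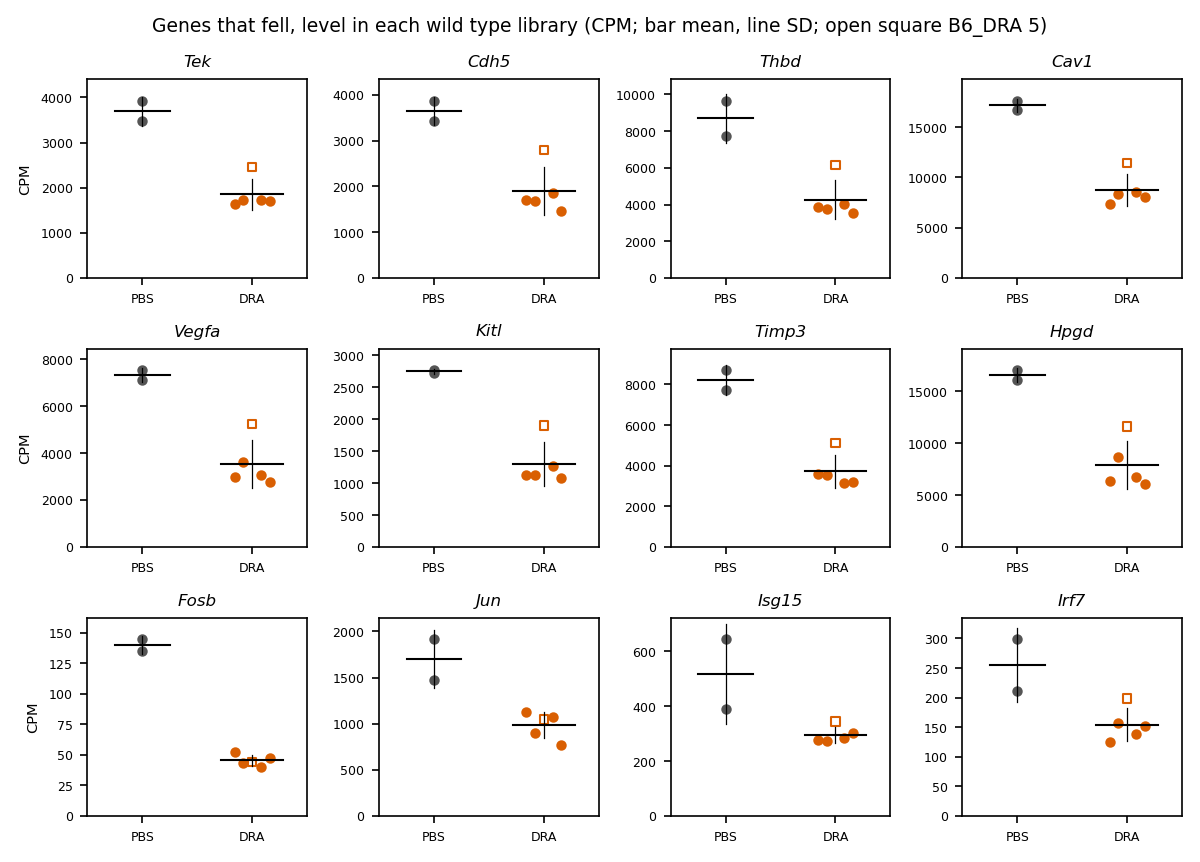
Level of 12 genes that fell, in CPM, with 1 point per library for B6_PBS (grey, n = 2) and B6_DRA (orange, n = 5), a bar at the mean and a line for the SD. Open squares mark B6_DRA 5, which in most panels lies between the controls and the other allergen-treated libraries.

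Genes of the basement membrane were among the matrix genes that fell. Of 14 tested matrix genes 5 fell and 1 rose, with a median log2 fold change of -0.31. Omitting B6_DRA 3, 4, 5, 6 or 7 left 1, 3, 7, 3 and 1 falls. Col12a1, a fibril-associated collagen, was at 369.0 and 312.8 CPM in B6_PBS and 82.6, 134.1, 196.4, 73.1 and 57.1 CPM in B6_DRA. It fell 3.1-fold, the largest fall past the test (log2 fold change -1.63 with SE 0.506, adjusted p = 0.0306). Col4a1, the collagen of basement membranes, Hspg2, its proteoglycan perlecan, and Lamb2, a laminin chain, fell 1.64-fold, 1.95-fold and 1.57-fold, the last in 5 of the 6 fits. Col3a1, a fibrillar collagen, was at 5369 and 5996 CPM in B6_PBS and 6013, 4223, 5486, 5467 and 4478 CPM in B6_DRA. The groups overlapped, and its interval of -0.47 to 0.17 bounds it within 1.5-fold, as that of -0.55 to 0.28 does for Ctgf, a fibrosis-associated factor. The difference between the kinds of collagen was not tested.

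Among 17 tested matrix proteases and inhibitors 2 rose (11.8% against 24.1% of the panel) and 3 fell (17.6% against 17.7%). Mmp12 is given above, and Adam8, a sheddase of leukocytes, rose 3.48-fold, with 510.5 to 1092 CPM in B6_DRA. Timp3, the matrix-bound inhibitor of metalloproteinases, was at 8724 and 7710 CPM in B6_PBS and 3586, 3522, 5131, 3160 and 3200 CPM in B6_DRA. It fell 2.21-fold (log2 fold change -1.14 with SE 0.275, adjusted p = 0.0171), and the aggrecanases Adamts1 and Adamts9 fell 1.88-fold and 2.52-fold. Mmp19 and Mmp13 were at 2038, 566.8, 198.7, 1662 and 1066 CPM and 161.2, 23.2, 23.1, 153.8 and 76.1 CPM in B6_DRA. Neither passed the test, with adjusted p of 0.0727 and 0.0672.

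Growth factors of the tissue fell in 7 of 17 tested genes and 1 rose, with a median log2 fold change of -0.38. All 6 fits called 3 of the falls, and without B6_DRA 3, 4, 5, 6 or 7 there were 1, 5, 9, 4 and 3. Igf1, which macrophages and stroma secrete, was the rise, at 96.6 and 153.6 CPM in B6_PBS and 830.4, 473.8, 235.6, 713.7 and 605.8 CPM in B6_DRA. Even the lowest allergen-treated library exceeded both controls, and it rose 4.56-fold (log2 fold change 2.19 with SE 0.626, adjusted p = 0.0258). Fgf7, the keratinocyte growth factor, was at 481.0 and 437.9 CPM in B6_PBS and 217.7, 219.9, 316.5, 206.8 and 203.0 CPM in B6_DRA and fell 1.97-fold (log2 fold change -0.98 with SE 0.265, adjusted p = 0.0214). Bmp6 and Igf2 fell 2.02-fold and 1.85-fold, each in 5 of the 6 fits. Smad7, the inhibitor of TGF-beta signalling, fell 1.88-fold and the epidermal growth factor family member Hbegf 1.57-fold. Smad2, a TGF-beta signal transducer, was bounded within -0.26 to 0.21.

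Immediate early genes fell in 5 of 13 tested members and rose in none, with a median log2 fold change of -0.61, and all 5 falls were called in all 6 fits, with 3, 4, 6, 3 and 3 falls when B6_DRA 3, 4, 5, 6 or 7 was left out. Fosb, an AP-1 subunit, was at 144.9 and 134.6 CPM in B6_PBS and 52.4, 42.9, 43.9, 40.4 and 47.6 CPM in B6_DRA. The allergen-treated libraries lay close together, B6_DRA 5 included, and it fell 3.06-fold (log2 fold change -1.61 with SE 0.294, adjusted p = 0.00723). Jun, its dimer partner, was at 1920 and 1477 CPM in B6_PBS and 1123, 903.0, 1044, 1067 and 773.9 CPM in B6_DRA and fell 1.73-fold. Ier3 and Gadd45b, stress-induced regulators of survival, fell 1.61-fold and 1.51-fold. Of 6 cell cycle genes none passed the edgeR test, and Cdkn1a, a cell cycle inhibitor, and Myc were bounded within -0.17 to 0.54 and -0.31 to 0.57.

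Marker lists of other cells show what moved with these functions. None of 6 tested neutrophil markers passed the edgeR test, while their summed level ranged from 3531 to 5945 CPM in B6_PBS and from 1419 to 9674 CPM in B6_DRA. Limma-voom called 1 of the 6 lower. S100a9, a calcium-binding protein of neutrophils and monocytes, was at 1115 and 2034 CPM in B6_PBS and 354.7, 2221, 2121, 1722 and 3517 CPM in B6_DRA. The groups overlapped, with B6_DRA 3 lowest and B6_DRA 7 highest (log2 fold change 0.33 with SE 0.602, adjusted p = 0.668). Ly6g, Mpo, Elane and Camp were below background in all 7 libraries. Of 14 tested markers of interstitial macrophages and monocytes 9 rose and 1 fell, and their sum went from 14800 and 15650 CPM to between 16940 and 24140 CPM. The single fall was Ly6c1, which lung endothelium carries as well, at 9495 and 8667 CPM in B6_PBS and 5601, 6380, 6678, 6643 and 7212 CPM in B6_DRA, and the fall was 1.4-fold. Of 7 tested alveolar macrophage markers 3 rose (Chil3, Mrc1 and Itgax) and none fell, while Pparg, Fabp4, Siglecf and Marco did not pass the edgeR test. Limma-voom called 1 of the 7 lower. Without B6_DRA 3, 4, 6 or 7 none of the 7 was higher. Marco, a scavenger receptor, was at 272.4 and 339.3 CPM in B6_PBS and 22.2, 312.9, 127.1, 20.2 and 25.4 CPM in B6_DRA. In Marco B6_DRA 4 lay among the controls and B6_DRA 3, 6 and 7 far below them (log2 fold change -1.53 with SE 0.866, adjusted p = 0.161). Dendritic cell markers rose in 5 of 10 tested genes and fell in none, among them Irf4, a transcription factor of the type 2 subset, at 3.53-fold. In the T cell list 2 of 6 rose (33.3% against 24.1% of the panel), the Ctla4 and Icos given above. None of 3 cytotoxic, 3 B cell and 2 platelet markers passed the edgeR test, with log2 fold changes of -0.63 for Gzma, 0.52 for Ms4a1 and -0.21 for Pf4. Of 7 mast cell and basophil genes 1 fell (14.3% against 17.7% of the panel). This was Gata2, which endothelium also expresses and which fell 2.01-fold in 5 of the 6 fits. Hdc, histidine decarboxylase, was bounded within -0.20 to 0.56. Pdgfra, a receptor of fibroblasts, fell 1.82-fold. Erythrocyte genes were not on the panel. The part of these cell types in the changes of the other lists was not tested.

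The spread among the 5 allergen-treated lungs was wider for the genes that rose than for those that fell, with median SDs of 0.342 and 0.235 on the log2 CPM scale. After Mmp12, the widest spreads were those of Marco (SD 1.67), Fpr1 (1.44), Arg1 (1.42), Fpr2 (1.38) and Mmp19 (1.35). Fpr1, a formyl peptide receptor of neutrophils and macrophages, was at 316.8 and 331.7 CPM in B6_PBS and 18.1, 191.3, 226.4, 37.8 and 88.8 CPM in B6_DRA. All 5 allergen-treated libraries lay below both controls, from far below in B6_DRA 3 to nearest in B6_DRA 5, and the gene did not pass the test (log2 fold change -1.51 with SE 0.639, adjusted p = 0.073). B6_DRA 3, 6 and 7 were the 3 highest libraries for Chil3, Arg1, Mmp12 and Trem2 and the 3 lowest for Marco and Fpr1. B6_DRA 5 was not the least shifted in every gene, as Retnla, Fosb and Cxcl5 show.

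**Figure D5:**
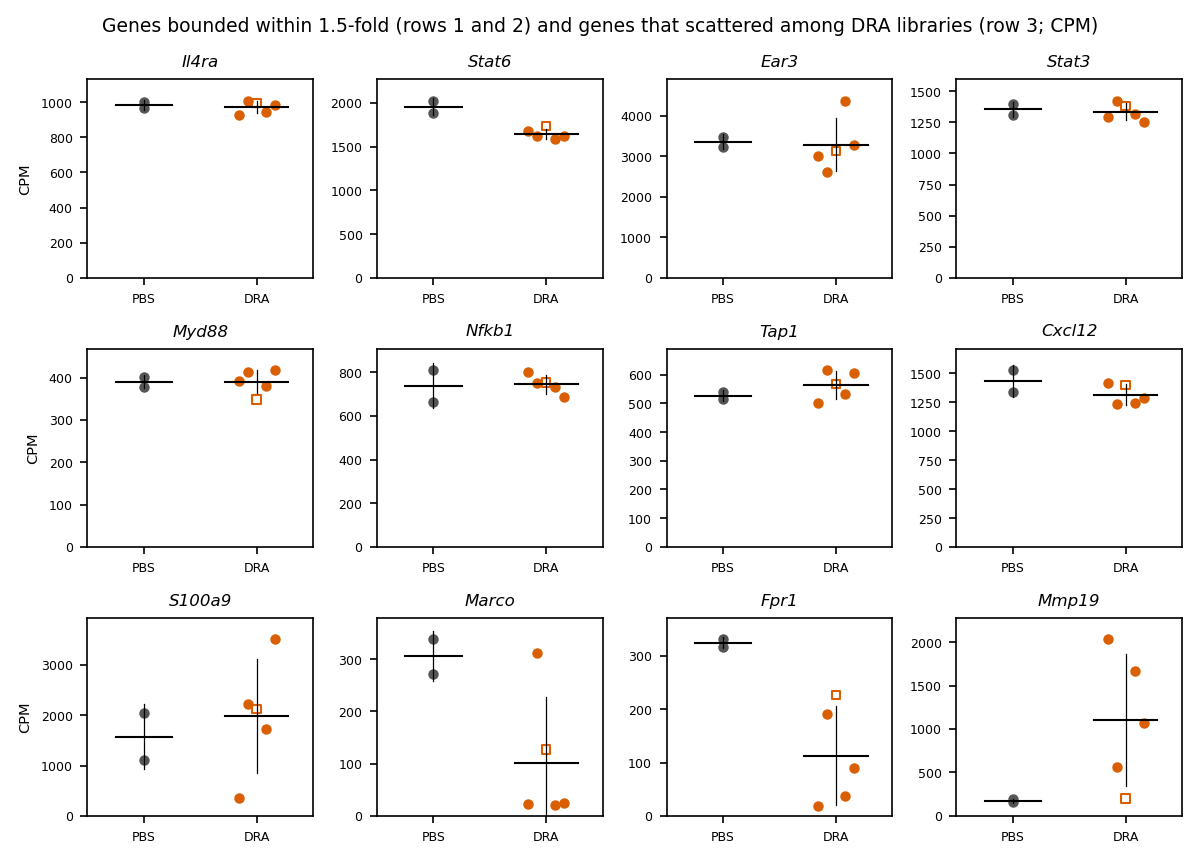
Level in CPM, with 1 point per library for B6_PBS (grey, n = 2) and B6_DRA (orange, n = 5, open square B6_DRA 5), a bar at the mean and a line for the SD. The first 8 genes were bounded within 1.5-fold by the 95% interval and the last 4 spread widely among allergen-treated libraries, none of them past the test.

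A further 89 called genes belonged to no list, and those named here were chosen after their values were seen. Scin, an actin-severing protein, was below background in both controls and at 54.4, 60.8, 60.1, 88.3 and 107.8 CPM in B6_DRA, a rise of at least 5.77-fold. Pglyrp1, a peptidoglycan-binding protein of phagocytes, was at 204.8 and 238.9 CPM in B6_PBS and 689.3, 745.6, 568.3, 890.2 and 735.8 CPM in B6_DRA and rose 3.27-fold (log2 fold change 1.71 with SE 0.254, adjusted p = 0.00482). Il4i1, an IL-4-induced amino acid oxidase, rose 6.32-fold and S100a4, a calcium-binding protein of motile cells, 2.38-fold. Cav1, the caveolar coat protein of endothelium and type I alveolar cells, was at 17610 and 16680 CPM in B6_PBS and 7357, 8341, 11440, 8494 and 8059 CPM in B6_DRA. It fell 1.96-fold (log2 fold change -0.97 with SE 0.265, adjusted p = 0.0222). Hes1, a Notch target, and Yap1, a growth-controlling co-activator, fell 1.91-fold and 1.62-fold.

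The comparison rests on 2 control libraries and on a panel chosen for innate immunity, so the shares above describe panel genes rather than the transcriptome. All 12 libraries carry 1 experiment code, and no batch could be set against the treatment.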

How the data were processed

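Per probe, the authors deposited a whole-number count, for 734 endogenous, 20 housekeeping, 8 negative and 6 positive control probes, and a scaled signal equal to that count times 1 factor for each library. R 4.2.0, edgeR and limma appear in the submitters' processing notes with no role, and no source used here gives background settings. The order of the deposited table showed which probes are housekeeping.

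The test on deposited counts was that of edgeR 4.0.16 (R 4.3.3). Probes were kept by filterByExpr (minimum count 10, minimum total 15), scaled by TMM and fitted with 1 mean per group over 12 libraries and 9 residual degrees of freedom. The filter and scaling also used all 12 libraries, and the fit of the 7 wild type libraries alone kept the same probes. P-values are two-sided and adjusted by Benjamini-Hochberg over 665 genes and called below 0.05. Each SE is the log2 fold change divided by the root of its F statistic, and log2 CPM uses a prior count of 2. Folds marked as at least are taken against the background of each library. The alternatives used limma 3.58.1 (log2 of the scaled signal plus 1) and DESeq2 1.42.0. The steps were tested on simulated data. Libraries of 1 group are not described as separate cultures or litters, and p-values cover only the spread among these samples, which may be technical. With 1 experiment code no batch was tested.

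The 36 functional and 14 marker lists, and the genes compared, were chosen with earlier results of these data known. Named genes were those 12 with the largest rise and 12 with the largest fall past the threshold, up to 4 members per list and direction with the smallest p (2 where none passed), up to 2 members per list with the narrowest interval within 1.5-fold, the 6 most abundant genes, the 10 widest spreads among B6_DRA, and listed genes below background throughout. Others (Areg, Cav1, Ccl1, Ccl2, Ccl5, Ccl19, Ccl21a, Cd163, Ear3, Hes1, Il1rn, Il3ra, Il4, Il4i1, Nfkb1, Pglyrp1, S100a4, Scin, Siglecf and Yap1) were named after their values were seen. Of the panel symbols, 724 are RefSeq symbols. Some genes stand in more than 1 list, and a few are not reported here.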

Additional observations from a re-analysis of the deposited data

Results flagged for a closer look

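Among 231 tested genes chosen for naming, 26 had 1 of the 5 B6_DRA libraries far from the other four on the log2 CPM scale, by Dixon's test. Chance flags about 1 in 20 groups. In 23 of the 26 the library was B6_DRA 5. Its values lay below the others in genes that rose, namely Il33 (10.94), Csf2ra (8.03), Ccl6 (11.28), H2-Eb1 (12.44), Ctla4 (5.72), Itgax (8.05), Tyrobp (11.84), Cd68 (10.33), Tlr13 (7.65), Il6 (4.19) and Cybb (10.6). Ctsd, which did not pass the test, lay below the others in it too, at 13.54. In genes that fell, its values lay above the others, namely in Timp3 (12.33), Kitl (10.9), Thbd (12.59), Bmp6 (10.51), Tnfsf10 (10.54), Cd47 (11.25), Tek (11.26), Fgf7 (8.33), Smad7 (10.54) and Pdgfra (10.38). Il17ra, which was bounded within 1.5-fold, lay above the others at 9.16. Psmb8 in B6_DRA 7 lay above the other libraries, at 11.55 against 11.25 to 11.32. Icosl in B6_DRA 3 lay above the other libraries, at 8.86 against 8.69 to 8.73. C5ar1 in B6_DRA 3 lay below the other libraries, at 7.49 against 8.19 to 8.37. The labels give no difference in treatment between B6_DRA 5 and the other allergen-treated libraries. Without it, 185 genes were higher and 160 lower.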

How the results depend on the processing

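No paired analysis was possible because no replicate number, of 1 to 12 in the labels, occurs in more than 1 group. The count of higher genes ranged from 0 to 185 and that of lower genes from 0 to 160 when 1 wild type library was left out at a time. The lowest values came from leaving out either B6_PBS library, and the highest from leaving out B6_DRA 5. Against 118 lower genes, housekeeping scaling gave 72 and the values scaled by the authors 61. Library size alone, chosen after seeing the data, gave 57 higher and 222 lower genes, and turned the log2 fold changes of H2-T23 to -0.11, H2-K1 to -0.05, H2-D1 to -0.15, Psmb8 to -0.16, Casp1 to -0.04, Csf1r to -0.36, Alox5ap to -0.08 and Apoe to -0.11. It counts the rise of Chil3, Chil4 and Retnla as part of each library's size. TMM without those 3 genes gave 155 higher and 124 lower, DESeq2 178 and 121, limma-voom 144 and 125, the 7 wild type libraries alone 170 and 130, no filter 157 and 120, probes above background 157 and 118, and background subtraction 154 and 103. Beyond library size alone, no named gene with a call reversed under these settings. The housekeeping probe Gusb, used in that scaling, had a log2 fold change of 1.02, and the other 19 had -0.48 to 0.28. A pair of controls, 1 panel and counts near background for several cytokines limit what the depth can show.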

Other observations

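Several genes with large fold changes missed the adjusted threshold, and the ones given here were chosen after their values were seen. Fbp1, an enzyme of glucose synthesis, was below background in both controls and at 56.4, 55.4, 48.5, 143.7 and 241.0 CPM in B6_DRA, with B6_DRA 6 and 7 highest, and its bound was at least 7.08-fold (adjusted p = 0.0985 by edgeR). Serpinb2, an inhibitor of plasminogen activation, was at 9.66 and 15.2 CPM in B6_PBS and 135.0, 23.2, 27.7, 153.8 and 95.2 CPM in B6_DRA. Its B6_PBS 1 value lay below background. Each allergen-treated library lay above both controls (log2 fold change 2.77 with SE 1.05, adjusted p = 0.0532). Lipa, the lysosomal acid lipase, was at 1368 and 1244 CPM in B6_PBS and 4275, 3075, 1409, 3526 and 3511 CPM in B6_DRA, with B6_DRA 5 next to the controls (log2 fold change 1.27 with SE 0.49, adjusted p = 0.0539). Clec5a, a lectin receptor of myeloid cells that signals through Tyrobp, was at 56.0 and 73.9 CPM in B6_PBS and 272.1, 228.9, 94.7, 229.5 and 374.3 CPM in B6_DRA (log2 fold change 1.87 with SE 0.731, adjusted p = 0.057). Il18, a cytokine matured by Casp1, was at 386.4 and 419.0 CPM in B6_PBS and 133.0, 402.3, 261.0, 146.3 and 145.9 CPM in B6_DRA. For Il18 B6_DRA 4 lay among the controls and B6_DRA 3, 6 and 7 far below (log2 fold change -0.87 with SE 0.382, adjusted p = 0.0811).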
